A study of Mus musculus with 12 samples.

Results

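Genes of the myeloid antibody receptors and of their signalling partners were followed in oligodendrocytes sorted from mouse brain. The 9 genes are Ptprc, Fcer1g, Fcgr2b, Fcgr3, Fcgr4, Lilr4b, Lilrb4a, Itgb2 and Inpp5d, found by matching their symbols to the Entrez Gene identifiers of the deposited count table, and all 9 were among its 2398 genes. They were picked for their levels in these same replicates, so every KO and WT value of theirs is given below as a description, without a p value. The sorted cells carried the Ndrg1-EGFP reporter of myelinating oligodendrocytes and excluded propidium iodide. KO cells came from C57BL/6 mice of the genotype CnpCre/+;Lmnafl/fl, in which Cre recombinase is made from a Cnp allele, a gene of oligodendrocytes, and acts on floxed Lmna, the gene of lamins A and C. WT cells, named Ctrl in the table, came from Cnp+/+;Lmnafl/fl mice of the same strain, so they carry the floxed alleles and the reporter as well but no Cre, and have an intact Cnp allele in place of the Cre allele. The age is given as postnatal day 60 and also as 8 weeks. Each genotype had 3 biological replicates, and the labels leave unsaid whether a replicate is 1 mouse or a pool, so spread between replicates may be technical in part. Each replicate was read as 2 libraries, which were summed, so n = 3 for each genotype.

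Levels are in CPM, a gene's counts scaled to the summed counts of the genes in the table and its TMM factor. These sums were 3694551 to 6093336 a replicate over the genes analysed here, of chromosomes 1 and 10, and so are not the depth of whole libraries. Coordinates are those of mm10 (GRCm38). Lmna, Cnp and 15 widely used microglia markers, such as Cx3cr1 and P2ry12, are not analysed here, so neither the recombination of Lmna nor the source of the 9 transcripts among blood and brain leukocytes was checked. Oligodendrocyte genes were abundant in every replicate. Adamts4, a protease of myelinating oligodendrocytes, stood at 8944.4, 9524.2 and 9695.8 CPM in KO replicates 1 to 3, against 7091.1, 6115.6 and 6540.6 CPM in WT replicates 1 to 3. The 9 genes together summed to 318.7, 688.3 and 160.1 CPM in KO replicates 1 to 3 and to 227.8, 133.4 and 157.0 CPM in WT replicates 1 to 3. KO replicate 2 stood apart, and KO replicate 3 lay within the WT range. In such sorted bulk samples, fewer cells of a type and less RNA per cell cannot be told apart.

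Microglia and macrophages sense antibody-coated material through Fc receptors. Activating receptors pair with the Fc receptor gamma chain, whose ITAM motif recruits the kinase Syk, while inhibitory receptors of the Fcgr2b and Lilrb4 kind carry ITIM motifs that recruit phosphatases, among them SHIP1, the product of Inpp5d. Ptprc encodes CD45, a phosphatase on the surface of nearly all leukocytes, and Itgb2 encodes CD18, the beta chain of the leukocyte integrins. None of the 9 is a gene of oligodendrocyte identity, and Ptprc, Itgb2 and Inpp5d are used by lymphocytes as well as by myeloid cells.

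Several of these genes are close copies of each other, which bears on how 50-base reads can be assigned. Lilr4b and Lilrb4a lie 4569 bases apart on chromosome 10, and their coding sequences match at 874 of 910 aligned bases, 96.0%. The 120-base coding stretches in which they differ most, at 12 bases, are shown because such bases are what a read needs to be assigned to the right gene. Both run from base 142 to base 261 of the coding sequence, with the differing bases in capitals.
Lilr4b: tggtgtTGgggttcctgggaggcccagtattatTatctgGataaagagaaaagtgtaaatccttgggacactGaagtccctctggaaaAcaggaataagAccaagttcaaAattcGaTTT
Lilrb4a: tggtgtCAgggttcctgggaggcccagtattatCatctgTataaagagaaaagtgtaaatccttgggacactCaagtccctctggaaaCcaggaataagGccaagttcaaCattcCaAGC

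Of the 50-base words in the protein-coding transcripts of Lilr4b, 25.5% also occur in transcripts of another gene. The share is 94.5% for Lilrb4a, because the annotated read-through transcript Gm49339 spans both genes, and 28.5% when Gm49339 is left aside. Fcgr2b and Fcgr3 match at 636 of 791 aligned coding bases, 80.4%, and have a stretch in common without any difference, from base 278 to base 397 of the Fcgr2b coding sequence and from base 263 to base 382 of that of Fcgr3. It is shown because reads from it name neither gene.
Fcgr2b and Fcgr3: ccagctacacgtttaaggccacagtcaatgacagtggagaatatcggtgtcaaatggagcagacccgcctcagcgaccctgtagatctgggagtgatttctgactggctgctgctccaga

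They share 166 words of 50 bases, which is 10.2% of the words of Fcgr3, and 6.72% of the words of Fcgr2b occur in some other gene. Fcgr4, Fcer1g, Ptprc and Inpp5d share none with any other gene, and Itgb2 shares 1.13%. The sources used here do not say how reads that fit several genes were treated. The levels of Lilr4b, Lilrb4a, Fcgr2b and Fcgr3 are uncertain to that extent. Use of the strand in counting is likewise unstated. The spans of all but Fcer1g, Itgb2 and Inpp5d overlap that of another annotated gene, such as Gm38204 at Fcgr2b and Gm40645 at Lilrb4a. Whether their exons overlap was not examined. Where exons on opposite strands do overlap, their reads cannot be told apart without strand.

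The gamma chain and the activating receptors overlapped between the genotypes. Fcer1g (Entrez 14127, chr1:171229572-171234349) encodes the gamma chain itself. Fcer1g stood at 68.1, 136.1 and 32.1 CPM in KO replicates 1 to 3, against 61.4, 31.5 and 41.6 CPM in WT replicates 1 to 3. KO replicate 2 was the highest, KO replicate 3 lay within the WT range, and the groups overlapped. Fcgr3 (Entrez 14131, chr1:171051169-171065915) encodes a low-affinity activating receptor for IgG, and stood at 51.3, 89.9 and 27.1 CPM in KO and at 53.2, 34.0 and 34.9 CPM in WT. KO replicate 2 was again the highest, WT replicate 1 lay just above KO replicate 1, and KO replicate 3 was the lowest of the 6. Fcgr4 (Entrez 246256, chr1:171018926-171029761), the receptor through which mouse myeloid cells bind IgG2a and IgG2b, was close to the limit of detection. Its counts were 4, 59 and 14 in KO replicates 1 to 3, against 26, 22 and 0 in WT replicates 1 to 3. The count of 0 in WT replicate 3 allows up to 0.540 CPM, a floor of 3 counts that covers counting error only. For Fcgr4 the replicates of both genotypes were scattered with no separation.

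Fcgr2b (Entrez 14130, chr1:170960558-170976071), the inhibitory IgG receptor, followed Fcgr3. It stood at 25.9, 39.9 and 14.3 CPM in KO, against 26.0, 16.1 and 18.4 CPM in WT, and KO replicate 3 was the lowest here too. Set within each replicate, there were 50.6, 44.4 and 52.7 Fcgr2b counts per 100 Fcgr3 counts in KO, and 48.9, 47.4 and 52.6 in WT. This ratio stayed within a narrow range in all 6 replicates while the levels of both genes moved, from the lowest to the highest replicate, by 2.79-fold for Fcgr2b and 3.32-fold for Fcgr3. Fcgr2b, Fcgr4, Fcgr3 and Fcer1g lie in this order within 273.8 kb of chromosome 1.

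The Lilrb4 pair gave the widest differences between the genotypes. Lilrb4a (Entrez 14728, chr10:51490898-51496613) encodes an inhibitory immunoglobulin-like receptor with ITIM motifs, also called gp49B, that myeloid and mast cells carry. It stood at 28.2, 91.7 and 19.0 CPM in KO replicates 1 to 3, against 11.0, 5.71 and 8.64 CPM in WT replicates 1 to 3. The mean of Lilrb4a was 46.3 ± 39.6 CPM in KO and 8.46 ± 2.66 CPM in WT (SD, n = 3 each), and every KO replicate lay above every WT replicate. Lilr4b (Entrez 14727, chr10:51480612-51486329), the neighbouring gp49A gene, encodes a related receptor without ITIM motifs. Its level was 7.12, 61.4 and 17.6 CPM in KO, against 2.66, 3.73 and 2.16 CPM in WT, on counts of 25, 388 and 85 in KO and of 14, 15 and 12 in WT. Here too the groups did not overlap, and KO replicate 3, which had the lowest level of Ptprc and Fcgr2b among the KO replicates, had the second highest level of Lilr4b. Lilr4b counts per 100 Lilrb4a counts were 25.3, 67.0 and 92.4 in KO replicates 1 to 3, and in WT were highest in replicate 2, at 65.2, and lowest in replicate 1, at 24.1. Unlike the Fcgr2b to Fcgr3 ratio, this one varied by several fold among replicates of the same genotype.

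Itgb2 (Entrez 16414, chr10:77530329-77565708), the integrin beta chain, stood at 57.5, 138.8 and 18.4 CPM in KO, against 33.8, 17.9 and 21.4 CPM in WT. KO replicates 1 and 2 were above all WT replicates and KO replicate 3 was among them. Ptprc (Entrez 19264, chr1:138062859-138175756) stood at 65.5, 106.1 and 14.9 CPM in KO, against 24.1, 9.94 and 16.9 CPM in WT, with the same arrangement. Inpp5d (Entrez 16331, chr1:87620312-87720510), the phosphoinositide phosphatase SHIP1 that ends signals started by Syk and PI3 kinase, stood at 14.0, 15.0 and 13.9 CPM in KO, against 10.6, 8.94 and 13.0 CPM in WT. Inpp5d did not share the peak in KO replicate 2, where its level was 1.16 times the median of the other 5 replicates, compared with 6.27 times for Ptprc, 6.48 times for Itgb2 and 16.5 times for Lilr4b. Its KO values lay above its WT values by a small margin, 13.9 CPM for the lowest KO replicate and 13.0 CPM for the highest WT replicate, on 67 and 72 counts.

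**Figure D1:**
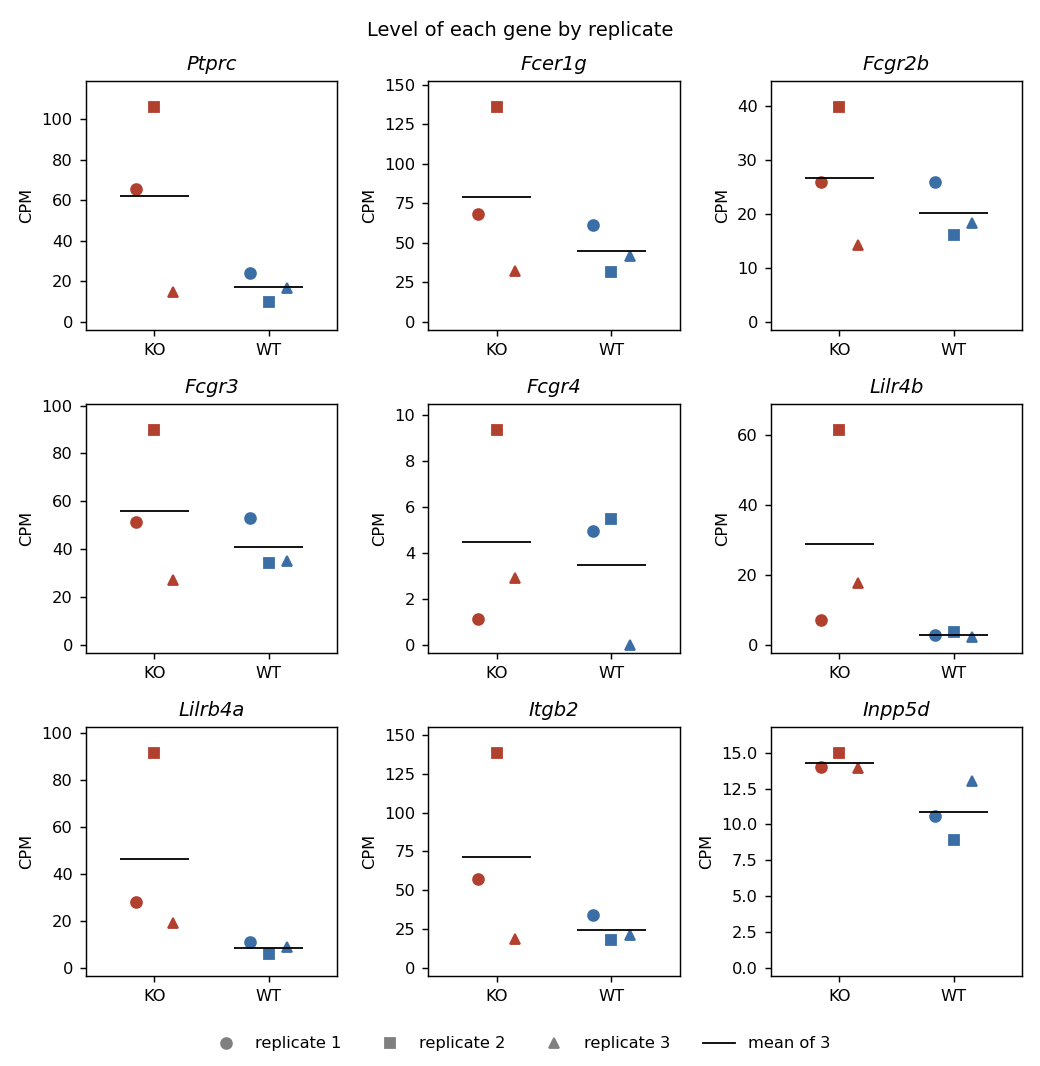
Level of each of the 9 genes in CPM (y axis, linear) in the 3 KO and 3 WT replicates (x axis). Symbols mark the replicate number and lines the mean of 3. KO replicate 2 is the highest point in every panel, from 9.34 CPM for Fcgr4 to 138.8 CPM for Itgb2, and in the panels of Lilr4b, Lilrb4a and Inpp5d all KO points lie above all WT points.

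KO replicate 2 was the highest of the 6 replicates for 9 of the 9 genes, and among all 1484 genes tested it was the highest for 15.4%. KO replicate 1 came next for 5 of the 9, an order found in 3.71% of all genes. The genes were chosen with these levels known, so nothing is read from these counts. The high values of KO replicate 2 were present in both of its libraries, with 363 and 307 counts of Ptprc, 439 and 438 of Itgb2 and 199 and 189 of Lilr4b. Between the 2 libraries of a replicate the median fold difference was 1.04 for Itgb2, 1.13 for Ptprc and 1.19 for Lilr4b, against 7.76-fold, 10.7-fold and 28.4-fold between the highest and the lowest replicate. For Itgb2, Ptprc and Lilr4b the spread was therefore between replicates and not between libraries. The largest fold difference between libraries was 1.28 for Itgb2, 1.28 for Ptprc and 1.99 for Lilr4b. Inpp5d differed between the libraries of a replicate by a median of 1.34-fold and by up to 1.95-fold. Between the highest and the lowest replicate it differed by 1.68-fold. Fcgr4 differed by up to 2.97-fold between libraries.

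Per kilobase of the longest protein-coding transcript, Fcer1g was the most abundant of the 9, at a mean of 115.3 CPM per kb in KO and 65.7 CPM per kb in WT. Fcgr3 followed at 41.6 CPM per kb in KO and 30.2 CPM per kb in WT. On the same scale the order in KO went on with Lilrb4a at 33.5 and Itgb2 at 24.1 CPM per kb, and in WT with Itgb2 at 8.21 and Lilrb4a at 6.13 CPM per kb. Then came, in KO, Lilr4b at 15.6, Ptprc at 12.3, Fcgr2b at 7.53, Fcgr4 at 3.55 and Inpp5d at 2.89 CPM per kb. In WT they were Fcgr2b at 5.69, Ptprc at 3.35, Fcgr4 at 2.76, Inpp5d at 2.2 and Lilr4b, the lowest of the 9, at 1.55 CPM per kb. In KO the range over replicates of each gene overlapped those of its neighbours in this order. Within each KO replicate, though, Fcer1g lay above Fcgr3 and Lilrb4a above Itgb2 per kilobase. Not all neighbours kept their order, as Lilr4b lay above Itgb2 in KO replicate 3. In WT the replicates of Fcer1g lay above those of Fcgr3, and those of Fcgr3 above those of Itgb2, and lower neighbours overlapped.

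The comparison of KO with WT asks which of these transcripts differ between the genotypes. edgeR's quasi-likelihood test, fitted on 1484 genes of the table with Benjamini-Hochberg adjustment at 0.05, called 0 of the 9 genes, and 0% of all genes were called higher and 0% lower. At an unadjusted p under 0.05 there were 4 of the 9 and 3.98% of all genes. DESeq2 on the same replicates called 2 of the 9, Lilr4b and Lilrb4a, where 0.404% of all genes were called higher and 0.0674% lower, and called 0 of the 9 without KO replicate 2 or without WT replicate 3. It called 1 of the 9, Lilr4b, without WT replicate 2, where 10 of 1548 genes were called higher and 0 lower. Without KO replicate 3 it called 4 of the 9, with Ptprc and Itgb2 added, where 11 of 1540 genes were called higher and 2 lower. Over all genes, it called 0 of 1514 without KO replicate 2, and 3 of 1536 higher and 2 lower without WT replicate 3. limma-voom called 0 genes. None of the 9 passed the filter on low counts through the KO replicates alone. Every KO replicate lay above every WT replicate for 3 of the 9, Lilr4b, Lilrb4a and Inpp5d, and for 4.45% of all genes. Every KO replicate lay below for 0 of the 9 and for 4.04%. With KO replicates 1 and 3 alone the same 3 genes lay above WT, as did 7.21% of all genes. As these genes were selected from this contrast, the counts describe them and support nothing further.

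The fitted log2 fold change, KO over WT, was above 0 for 9 of the 9 genes, as for 49.5% of all genes, with a median of 0.81 and a median of -0.0064 over all genes tested. It was above 1 for 4 of the 9 and for 4.65% of all genes. It was 3.34 ± 0.81 (SE, n = 3 each) for Lilr4b and 2.45 ± 0.62 for Lilrb4a. For Ptprc it was 1.87 ± 0.66 and for Itgb2 1.55 ± 0.66. The gamma chain Fcer1g had 0.81 ± 0.50, and the remaining 4 genes lay between 0.39 and 0.46, each with an SE at least 0.43. With related genes added up, Lilr4b plus Lilrb4a had 2.73 ± 0.61, and Fcgr2b plus Fcgr3 plus Fcgr4 had 0.44 ± 0.40.

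Without KO replicate 2 the log2 fold change was 0.159 for Fcer1g and 0.636 for Itgb2. In that fit Fcgr2b stood at -0.0062, Fcgr3 at -0.0551 and Fcgr4 at -0.737, so the IgG receptors were not higher in the other KO replicates. Lilr4b kept 2.12, Lilrb4a 1.48, Ptprc 1.23 and Inpp5d 0.361 without that replicate. For Inpp5d the values were nearly equal with and without it. Leaving out any other single replicate left 9 of 9 values above 0, except that Fcgr4 stood at -0.19 without WT replicate 3.

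**Figure D2:**
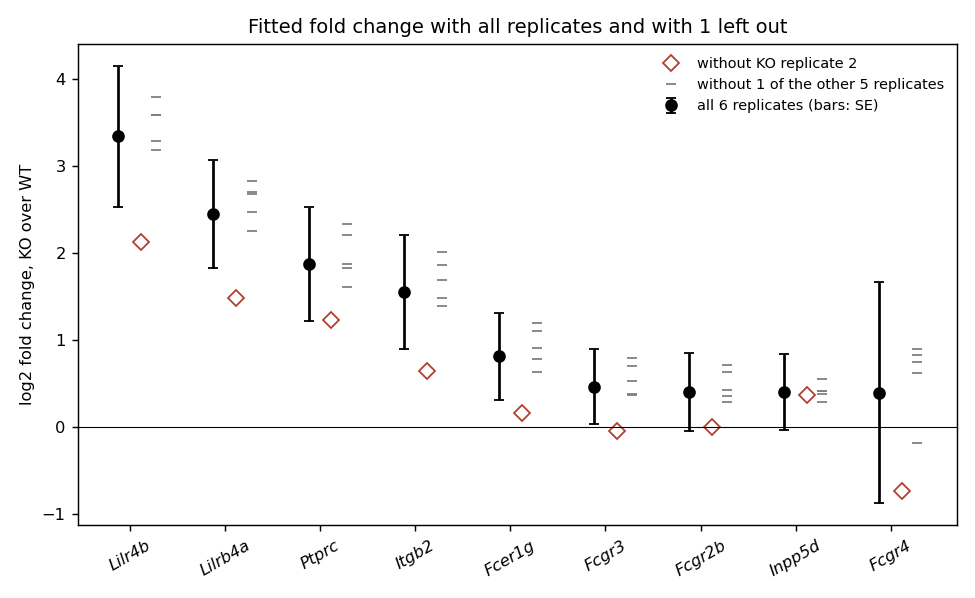
Log2 fold change of KO over WT (y axis) for each of the 9 genes (x axis), fitted on all 6 replicates with SE bars, without KO replicate 2 (open diamonds), and without each of the other 5 replicates (dashes). The value of Lilr4b is 3.34 with all replicates and 2.12 without KO replicate 2, and that of Fcgr3 is 0.46 and -0.0551.

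Counts set against Fcer1g within a replicate describe the proportions among the genes, whatever share of the counts the 9 genes took there. Lilrb4a had 41.4, 67.3 and 59.4 counts per 100 Fcer1g counts in KO replicates 1 to 3, against 18.0, 18.1 and 20.8 in WT replicates 1 to 3. Ptprc had 96.2, 77.9 and 46.5 counts per 100 Fcer1g counts in KO, against 39.3, 31.5 and 40.7 in WT. Itgb2 had 84.5, 102.0 and 57.4 in KO, against 55.1, 56.7 and 51.5 in WT. For these 3 genes every KO replicate, KO replicate 3 included, lay above every WT replicate. For Itgb2 and Ptprc, however, KO replicate 3 did so by little. Its Ptprc ratio rested on 72 Ptprc counts, and that of WT replicate 3 on 94. Fcgr3 had 75.3, 66.0 and 84.5 counts per 100 Fcer1g counts in KO, against 86.7, 107.9 and 84.0 in WT, and the groups overlapped. The other 4 genes overlapped too, so 3 of 8 ratios lay above WT in every KO replicate and 0 lay below. Among all tested genes set against Fcer1g in the same way, 0.944% lay above and 2.23% below. Fcer1g itself was highest in KO replicate 2, so genes without that peak had low ratios there and could seldom lie above. These shares are therefore not a like baseline for genes that peak there too, and nothing is read from them. All these ratios share the Fcer1g counts and come from the contrast that chose the genes, and their order was seen before they were described.

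**Figure D3:**
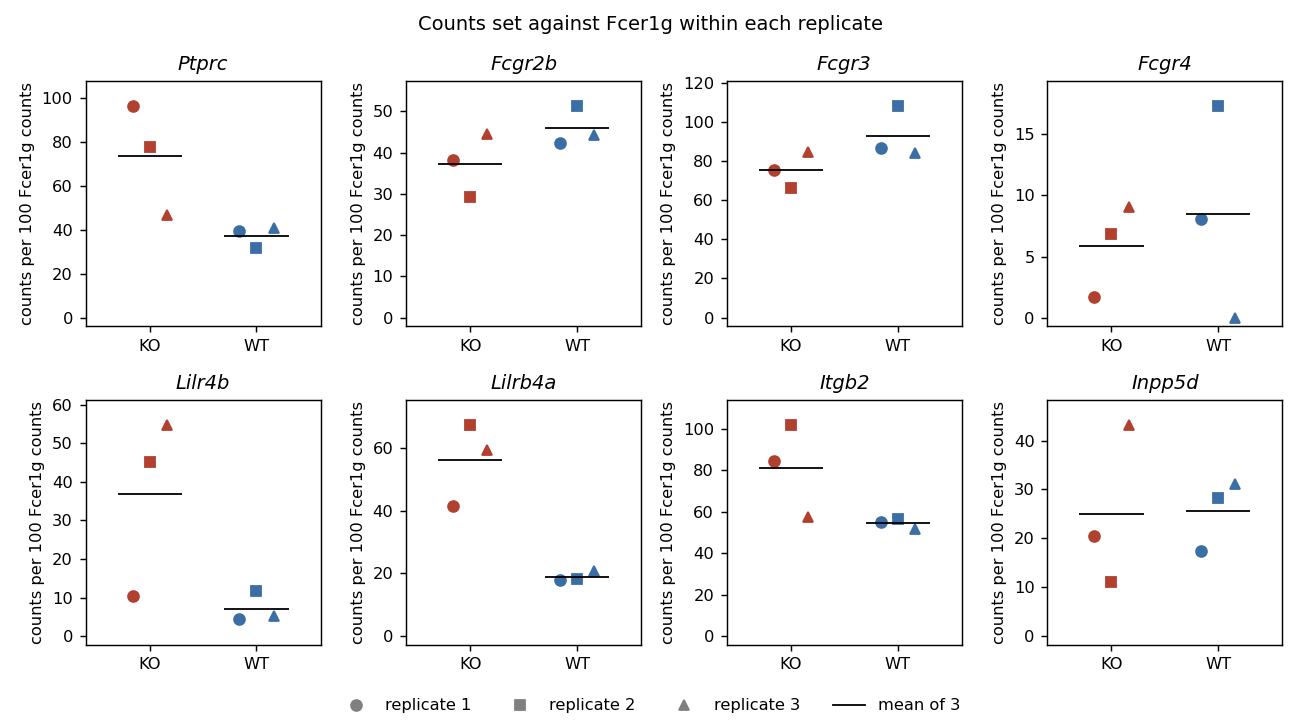
Counts of 8 genes per 100 counts of Fcer1g (y axis, linear) within each KO and WT replicate (x axis), with the mean of 3 as a line. For Ptprc, Lilrb4a and Itgb2 the KO points, from 46.5, 41.4 and 57.4 upward, all lie above the WT points, which end at 40.7, 20.8 and 56.7.

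Other genes used by leukocytes or in related pathways were followed on lists drawn up with earlier results of these data known. Of 25 further myeloid and leukocyte genes, 21 were tested, 0 were called by edgeR in either direction, 19 had a log2 fold change above 0 and the median was 0.80. KO replicate 2 was the highest for 14 of the 21, and for 15.4% of all genes. Among the most abundant were Slc29a3, a lysosomal nucleoside transporter, and Ifngr1, the interferon gamma receptor chain. Slc29a3 stood at 1538.3, 1742.7 and 1795.6 CPM in KO, against 1137.3, 1476.6 and 1155.9 CPM in WT. Its groups did not overlap, and KO replicate 2 was not the highest. Slc29a3 alone stood above the sum of the 9 genes in every replicate, and which cells made it was not tested. Of 11 SLAM family receptors and adaptors, 6 were tested, all 6 were highest in KO replicate 2, edgeR called 0 and DESeq2 called 1, Cd244a. Their summed level was 41.0, 109.7 and 16.1 CPM in KO, against 32.5, 20.4 and 25.9 CPM in WT, led by Cd48, Cd84 and Cd244a. Cd244a, a receptor of NK and other leukocytes, stood at 4.84, 28.3 and 4.14 CPM in KO, against 0.38, 0 and 0 CPM in WT, without overlap. The 5 Fc receptor-like and antibody receptor genes, led by Fcer1a, Fcmr and Fcrlb, were too low to test and summed to at most 8.23 CPM.

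Genes that act beside these receptors and are used by many cells formed another list. Of 19 kinases, phosphatases and adaptors listed, 11 were in the table and 10 were tested, with 4 of 10 log2 fold changes above 0, a median of -0.01 and 0 called. Fyn, a Src-family kinase that oligodendrocytes use themselves, stood at 1466.6, 1528.0 and 1475.1 CPM in KO, against 1284.9, 1398.4 and 1286.1 CPM in WT, without overlap. Lims1 and Pik3c2b were the other two leading genes and overlapped between the genotypes. Inpp4a, a phosphatase of the lipid that SHIP1 makes, stood at 50.7, 48.0 and 50.7 CPM in KO, against 31.5, 30.1 and 32.4 CPM in WT, again without overlap. KO replicate 2 was the highest replicate for 1 of these 10 genes, Fyn.

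Markers of other leukocytes varied among the replicates in different ways. The neutrophil and granulocyte list had 7 of 7 genes in the table and 4 tested, and summed to 137.9 to 404.0 CPM in KO and 156.5 to 218.8 CPM in WT. Cxcr2, a chemokine receptor of neutrophils, stood at 6.84, 15.4 and 4.35 CPM in KO, against 5.89, 7.2 and 7.38 CPM in WT, and overlapped. Elane, neutrophil elastase, stood at 12.2 CPM in KO replicate 2 and at 0 in the other 5 replicates, Prtn3 stood at 10.9 CPM in that replicate and at most 1.86 CPM in the others, and Cxcr1 was at 0 in all. The T and NK cell list had 11 of 12 genes in the table and 1 tested, and summed to 15.5 to 41.0 CPM in KO and 5.96 to 16.4 CPM in WT, led by Gzmm, Icos and Prf1. The sum was highest in KO replicate 2, but Gzmm, the 1 gene tested, stood at 8.83, 6.49 and 8.9 CPM in KO, against 7.79, 4.97 and 11.7 CPM in WT, and was not. Icos and Ctla4 had counts in all 3 KO replicates and none in the WT replicates, where a floor of 3 counts allows up to 0.54 to 0.745 CPM. Ctla4 was picked with its values in view, and the share of all genes with this pattern is not given. Prf1 did not follow it, at 0, 4.91 and 1.03 CPM in KO, against 1.9, 0 and 2.7 CPM in WT. Tnfsf4 was at 0 in all 6. The B cell list had 4 of 4 genes in the table and 2 tested, both highest in KO replicate 2, and summed to 30.6 to 44.3 CPM in KO and 36.9 to 40.5 CPM in WT, nearly all of it Cd55, with Cr2 and Fcmr next. Cd55 was at 38.2 CPM in KO replicate 2 and at 37.3 CPM in WT replicate 2, so its peak was slight. The part of neutrophils, T cells or other leukocytes in the levels of the 9 genes was not tested.

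Of the genes of other brain cells, 3 of 8 tested mural and fibroblast genes, 2 of 5 astrocyte genes and 1 of 4 endothelial genes were highest in KO replicate 2, and 0 of the neuronal, choroid plexus and oligodendrocyte genes were. edgeR called 0 genes on any of the lists, and DESeq2, among the list genes named here, called Cd244a and Adamts4 higher. Astrocyte genes summed to 3218.7 to 3799.6 CPM in KO and 2733.5 to 3487.2 CPM in WT, led by Prdx6, Gja1 and Gpr37l1. Most of the astrocyte sum was Prdx6, at 2657.4 to 2869.4 CPM in KO and 2342.6 to 2805.2 CPM in WT. Mural and fibroblast genes summed to 1006.4 to 1327.9 CPM in KO and 850.7 to 1079.4 CPM in WT, led by Col6a2, Fn1 and Dcn. That sum was 1327.9 CPM in KO replicate 1 and 1327.1 CPM in KO replicate 2, and Col6a2 was at its highest, 845.7 CPM, in KO replicate 2, as was the astrocyte gene Gpr37l1, at 441.9 CPM. The genes listed as endothelial, led by Bsg, Prox1 and Cd34, summed to 4190.8 to 5121.7 CPM in KO and 4030.2 to 5272.6 CPM in WT. Whether endothelial cells made Bsg and Prox1 was not tested. Most of the endothelial sum was Bsg, at 3167.1 to 4192.9 CPM in KO and 2989.7 to 4475.1 CPM in WT. The endothelial genes Sele and Selp were at most 2.69 CPM in any replicate. Neuronal genes, led by Map2, Scg2 and Nav3, summed to 230.7 to 315.7 CPM in KO and 234.5 to 532.3 CPM in WT. Kcnj13 of the choroid plexus was at 131.1 CPM in WT replicate 1 and at most 16.2 CPM elsewhere. The listed oligodendrocyte genes, led by Sgk1, Tmeff2 and Adamts4, summed to 51237.0 to 81573.6 CPM in KO and 41415.2 to 80938.3 CPM in WT. Their spread followed Sgk1, at 13203.5 to 45901.9 CPM in KO and 10432.5 to 46222.2 CPM in WT. Such sums describe their leading genes and do not measure the amount of a cell type.

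**Figure D4:**
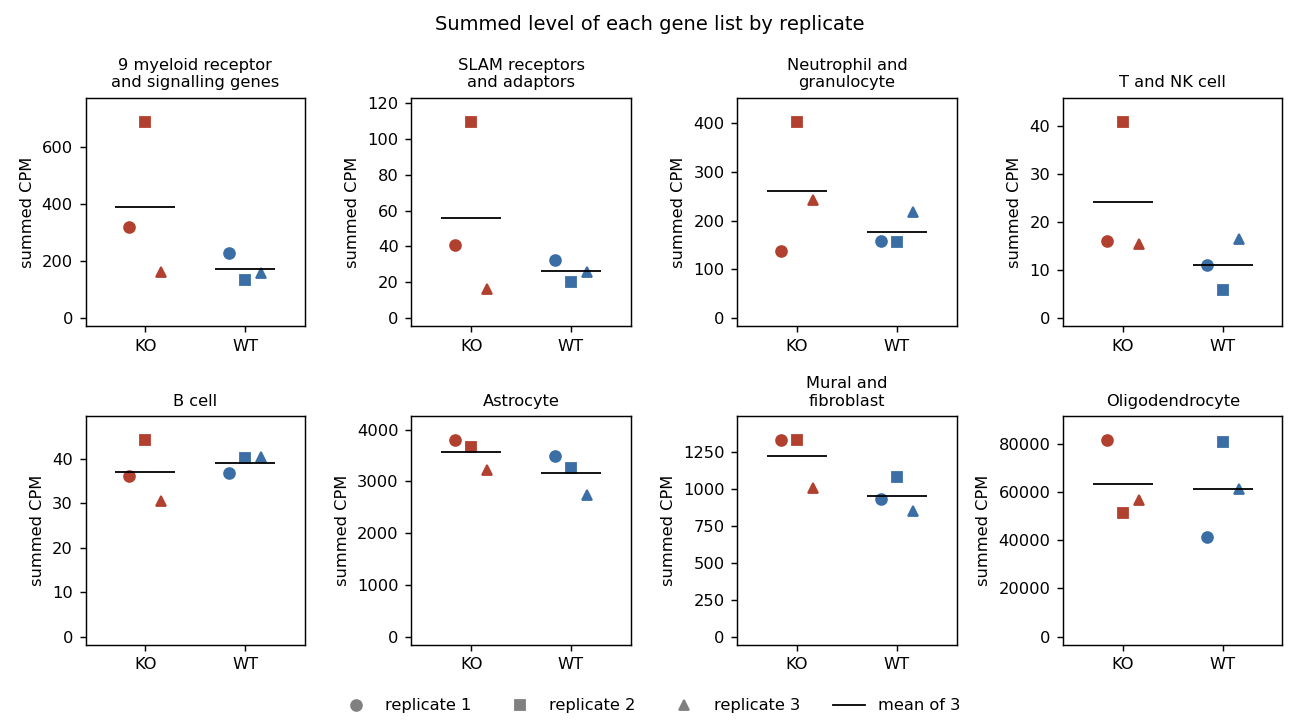
Summed CPM (y axis, linear) of the 9 genes and of 7 marker lists in each KO and WT replicate (x axis), with the mean of 3 as a line. The 9 genes, the SLAM genes, the neutrophil, T and NK cell and B cell lists have their highest point in KO replicate 2, at 688.3, 109.7, 404.0, 41.0 and 44.3 CPM.

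The genes whose pattern over the 6 replicates was most like the mean log2(CPM + 1) of the 9 genes were Col5a2, Ifi204, Srgn, Catip, Ube2t and Rab32, with Pearson correlations of 0.991, 0.98, 0.974, 0.969, 0.941 and 0.937 over 6 replicates that include the KO replicate 2 peak. Srgn encodes serglycin, the core proteoglycan of leukocyte granules, and stood at 40.2, 139.9 and 27.3 CPM in KO, against 25.8, 18.4 and 9.36 CPM in WT. Ifi204, an interferon-inducible gene, stood at 7.69, 26.6 and 4.97 CPM in KO, against 6.65, 4.97 and 4.14 CPM in WT. Col5a2, a fibrillar collagen chain, stood at 29.3, 44.2 and 26.9 CPM in KO, against 26.4, 24.1 and 23.4 CPM in WT, a much smaller range. Among the 9 themselves, the correlation of a gene with the mean of the other 8 was highest for Itgb2 at 0.945 and Lilrb4a at 0.938, and lowest for Inpp5d at 0.584 and Fcgr4 at 0.421. These values describe shared replicates and carry no test.

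Promoter sequences were examined because most of the 9 genes peaked in the same replicate. RefSeq windows on GRCm38.p6, from 250 bases before to 50 bases after a start site, were at hand for 7 of the 9 genes, 9 windows in all. The 6-letter core GAGGAA, or its complement TTCCTC, is bound by PU.1, the Ets factor that myeloid cells depend on. It was found in 5 of the 9 windows, and in 28.3% of 32851 windows of all genes. The 5 windows belong to 4 of the 7 genes, Ptprc, Fcgr3, Fcgr4 and Inpp5d, and the 2 of Fcgr3 largely overlap and hold the same match. The longer form GAGGAAGT or ACTTCCTC, which contains the core, was found in 2 of the 9 windows, those of Fcgr4 and Inpp5d, and in 3.2% of all windows. The windows of these genes and the first of Ptprc are shown with the 6-letter matches in capitals.
Ptprc promoter, chr1:138175256-138175555, minus strand: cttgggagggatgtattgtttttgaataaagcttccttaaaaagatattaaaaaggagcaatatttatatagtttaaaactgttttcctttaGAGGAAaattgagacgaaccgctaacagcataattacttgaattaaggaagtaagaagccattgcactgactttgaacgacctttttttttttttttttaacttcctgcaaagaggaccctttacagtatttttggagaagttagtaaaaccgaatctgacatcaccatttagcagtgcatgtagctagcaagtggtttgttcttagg
Fcgr4 promoter, chr1:171018676-171018975, plus strand: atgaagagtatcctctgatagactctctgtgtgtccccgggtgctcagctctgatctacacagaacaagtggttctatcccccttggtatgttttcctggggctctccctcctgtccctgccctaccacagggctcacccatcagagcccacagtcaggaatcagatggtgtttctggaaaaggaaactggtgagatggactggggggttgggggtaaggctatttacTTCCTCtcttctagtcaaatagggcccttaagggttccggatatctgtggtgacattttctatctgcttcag
Inpp5d promoter, chr1:87620062-87620361, plus strand: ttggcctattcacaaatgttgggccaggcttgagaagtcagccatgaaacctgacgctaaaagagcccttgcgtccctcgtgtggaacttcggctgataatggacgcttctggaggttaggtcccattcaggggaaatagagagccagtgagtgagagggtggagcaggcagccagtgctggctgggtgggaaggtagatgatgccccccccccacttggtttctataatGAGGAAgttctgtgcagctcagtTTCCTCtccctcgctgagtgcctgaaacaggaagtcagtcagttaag

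The windows of Fcer1g, Fcgr2b and Lilr4b had no match. In KO replicate 2 these genes stood at 3.27, 2.17 and 16.5 times the median of the other 5 replicates. Ptprc, Fcgr3, Fcgr4 and Inpp5d, with a match, stood at 6.27, 2.57, 3.22 and 1.16 times. The peak was thus seen with and without a match, and a link between them was not tested. A match is a string of letters and was not tested as a binding site.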

How the data were processed

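RNA was sequenced from sorted Ndrg1-EGFP oligodendrocytes of 3 KO and 3 WT biological replicates, with 2 libraries each. The authors deposited raw counts per gene and library. Their tools included HISAT2, featureCounts, SAMtools 1.4.1, fastp, FastQC, CASAVA 1.8.2 and DESeq2 1.38.1, with mm10 as the genome, per the submitters' processing notes. Parameters were not among the sources used here. The table held 2398 complete lines, and 1 cut line was left out. Of the identifiers, 2226 matched a RefSeq GRCm38 symbol, and 172, with 0.552% of the counts, did not.

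The members and gene lists were chosen with earlier results of these data known. Besides the 9 genes, the text names the 3 most abundant genes of each list and the 6 genes most like the 9 over the replicates. Some genes that this rule names are not reported here. Adamts4, Elane, Prtn3, Cxcr1, Ctla4, Tnfsf4 and Inpp4a are list genes, and those outside that rule were picked with their values in view. The libraries of a replicate gave a chi-square of 1.00 to 1.06 per degree of freedom over genes with at least 20 counts (chi-square p from 0.0594 to 0.486). Different replicates of a genotype gave 38.1 to 140.5. The libraries thus differed by an amount close to sampling noise and far less than replicates did, and were summed. The summed counts were fitted by robust quasi-likelihood (edgeR 4.0.16, R 4.3.3) after filterByExpr and TMM. The SE is the size of the log2 fold change over root F. The edgeR fit was checked on simulated counts with known changes. Alternatives were other size factors and filters, DESeq2 1.42.0, limma-voom 3.58.1, a replicate block, single libraries, summed related genes and leaving out each replicate. DESeq2 without each replicate was added after seeing the data. Coding sequences are from GENCODE M21, aligned with Biopython 1.88.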

Additional observations from a re-analysis of the deposited data

How the results depend on the processing

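edgeR called 0 genes higher and 0 lower, and 0 of the 9 genes, under other size factors, other filters, single libraries, summed related genes and each left-out replicate. The same held for limma-voom. DESeq2 called 6 of 1484 genes higher and 1 lower, and 2 of the 9. Each replicate was also left out of DESeq2 in turn, a step chosen after seeing the data, with 1514 to 1548 genes tested. Without KO replicates 1, 2 and 3 and WT replicates 1, 2 and 3 in turn, DESeq2 called 6, 0, 11, 10, 10 and 3 higher. It called 0 to 4 lower and 0 to 4 of the 9. The cause was not tested. At an unadjusted p under 0.05, edgeR had 59 genes, or 34 to 86 with 1 replicate left out, and limma-voom 62. The median log2 fold change of the 9 was 0.81, and with 1 replicate left out 0.361 (KO replicate 2) to 1.19 (KO replicate 3). It reached 1.25 with limma-voom and was above 0 under every alternative run. Without KO replicate 2 the sign changed for Fcgr2b (-0.0062, DESeq2 -0.00204), Fcgr3 (-0.0551, DESeq2 -0.05) and Fcgr4 (-0.737, DESeq2 -0.76), and without WT replicate 3 for Fcgr4 (-0.19, DESeq2 -0.201). Over the edgeR fits with 1 replicate left out the highest values were 0.704 for Fcgr2b, 0.793 for Fcgr3 and 0.898 for Fcgr4.

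With the replicate block edgeR called 0 genes and 0 of the 9, with a median of 0.81 for the 9. Same-numbered replicates had correlated deviations of 0.0033, -0.329 and 0.146, and KO replicate 1 correlated best with WT replicate 2 (0.381), so the numbers were not taken to pair the samples. Fcgr4 was measured on at most 59 counts a replicate, and 1 of its 6 values is a count of 0, so depth limits its direction.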
